A study of Homo sapiens with 346 samples.

Results

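Live single cells labelled HepG2 were ranked by the level of 10 S-phase genes. The 22 cells with the highest level were compared with the 22 cells with the lowest, so both groups were chosen by measured values of these cells. The level, called the S-phase score here, was the mean of log2(TPM + 1) over PCNA, MCM2, MCM4, MCM5, MCM6, RRM2, TYMS, CDC6, GINS2 and UHRF1 in each cell, where TPM is the deposited transcript abundance, normalised for length and depth. Of the 68 live columns, 1 was equal to a column of fixed cells and was left out, so 67 cells were ranked, out of 334 cells in the gene tables of the whole series. The 23 cells between the groups are called the middle cells. The study compared live cells with cells fixed in 80% methanol and stored for 1 week, in HCT-116, a colorectal carcinoma line, and in HepG2, a liver carcinoma line. Each cell gave 1 library by Smart-seq2, a full-length single-cell protocol that primes on the poly(A) tail. All live cells compared were HepG2-labelled, grown in DMEM with fetal bovine serum and penicillin-streptomycin, and sorted as single live cells; the labels name no drug, engineered allele or synchronisation. The labels do not tell apart the 2 HepG2 experiments of the study, so all live HepG2 cells count as 1 sample. Cells of 1 sample are not replicates, so no test was run, and the SDs and ranges describe the spread over cells.

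The label was checked against marker genes. Of the 17 hepatocyte markers listed, 10 were in the table, and 0 of those had a TPM above 1 in at least 50% of the cells. Their summed level ranged from 0.0 to 24.6 TPM in the low cells and from 0.0 to 35.9 TPM in the high cells. Of 9 luminal breast epithelium markers in the table, 6 passed that limit (ESR1, GATA3, TFF1, TFF3, GREB1 and SPDEF), with a median summed level of 676 TPM in the low and 2227 TPM in the high cells. No intestinal, blood or fibroblast marker passed it (0 of 5, 0 of 7 and 0 of 5). The cells are therefore called HepG2-labelled, and no other cell type name is given.

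In S phase a cell copies its DNA once. Transcription factors of the E2F family switch on the genes for the helicase, the polymerases and the nucleotide supply before and during this phase, and histone genes supply the proteins that package the new DNA. Genes for mitosis follow later, in G2 and M phase, and many of them carry a short promoter element known as the CHR, through which the DREAM complex and MYB- and FOXM1-containing complexes act.

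The score that set the groups ranged from 1.17 to 4.69 in the low cells (median 3.46) and from 5.99 to 6.97 in the high cells (median 6.49). The first cell outside the low group had a score of 4.78 and the last cell outside the high group had 5.94, so the limits cut a continuous ranking. Of the score genes, RRM2, a subunit of ribonucleotide reductase, had a median of 3.45 TPM in the low and 317 TPM in the high cells. PCNA, the sliding clamp, had 33.8 and 187.8 TPM, and MCM2, a helicase subunit, had 11.1 and 85.8 TPM. These genes set the ranking, and the values are given as a description only. Every other gene was measured in the same cells as the score, so the values below are descriptions of the 2 groups as well.

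The groups differed in more than the score. The median number of genes detected was 13730 in the low cells (8950 to 15932) and 13959.5 in the high cells (13396 to 15930). The median share of reads assigned to transcripts was 69.3% (20.5 to 78.7) against 77.3% (69.6 to 83.6), from medians of 2.25 and 2.55 M (mega) reads. The TPM of all genes in the table summed to a median of 838525 in the low and 908187 in the high cells, so the totals also differed between the groups. Over all 67 cells, Pearson's r of the score was 0.56 with this sum, 0.55 with the mean level of the G2/M genes described below, 0.39 with the assigned share, 0.28 with genes detected, 0.23 with reads and -0.10 with the ribosomal RNA share, all from the same libraries as the score. A single low cell stood apart, with 20.5% of reads assigned, 8950 genes and 0.10% of its table in ribosomal RNA genes, and without it 7.79% of the genes were higher and 0.859% lower by the limit used below. The part of depth and of the TPM sum in the differences was not tested.

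Of 12577 genes with a mean of at least 1 TPM, 1005 (7.99%) were higher by at least 1 in the high cells and 92 (0.731%) were lower, on the scale of differences between means of log2(TPM + 1). This scale understates the fold of genes with a low TPM. The median difference over all genes was 0.24, and members are read against it. When TPM was divided by the median ratio to the mean cell, that median was 0.01, with 4.47% of the genes higher and 1.35% lower, so the higher share of the genes past the limit went from 91.6% to 76.8%. The 15 largest differences belonged to genes of mitotic entry and mitosis (PKMYT1, CDK1, UBE2C, AURKB, MELK, ZWINT), the onset of S phase, replication and repair (CCNE2, CDC45, TK1, EXO1), the hold of cohesin on copied DNA (CDCA5), histone supply (HIST1H2AJ, HIST1H1D, HIST1H3I) and histone deposition (ASF1B). Among the 15 lowest were 8 histone genes and 4 small nucleolar RNAs.

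**Figure D1:**
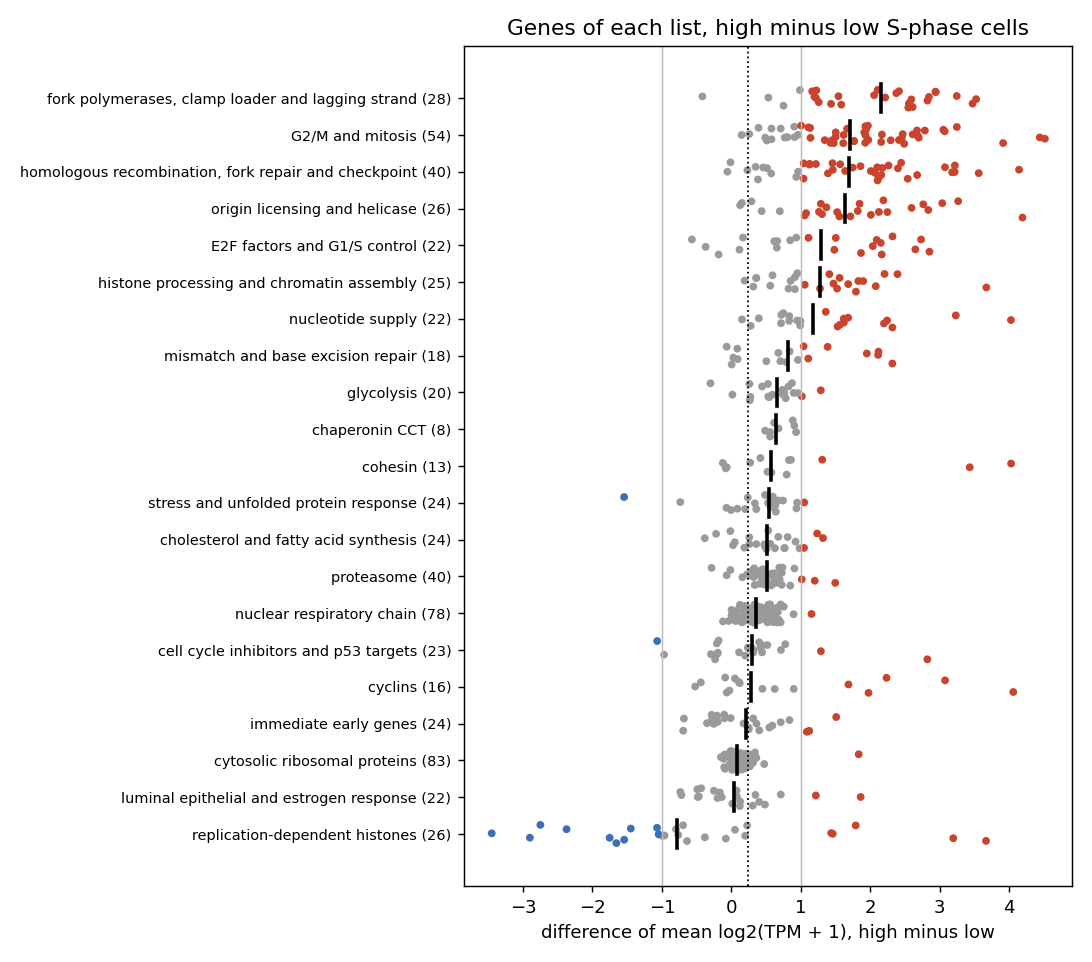
Difference of mean log2(TPM + 1), high minus low S-phase cells, for each gene (point) of 21 lists, with the number of genes tested in brackets, the list median (black bar), the median of all genes (dotted line, 0.24) and the limits of 1 and -1 (grey lines). Fork polymerase genes had the highest list median, 2.16, and replication-dependent histone genes had the lowest, -0.78.

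Promoters are shown for 5 higher genes that carry the letters of 2 elements, so that these can be read in place. They were picked for carrying them: of the 11 genes with a promoter among the 15 largest differences, 5 carried neither (CDC45, TK1, AURKB, MELK and HIST1H1D), and CCNB2 is not among the 15. The windows are RefSeq sequences on GRCh38.p14, from 250 bases before to 50 bases after the start of the gene. The E2F letters searched were TTTCCCGC, TTTGGCGC, TTTCGCGC and TTTGCCGC, and the CHR letters were TTTGAA, each on both strands; the sets do not overlap. E2F letters stood in 3.33% of all 27305 promoters and CHR letters in 15.4%, and over the 9281 tested genes with a promoter the shares were 5.68% and 9.67%. Of the members with a promoter, E2F letters stood in 9 of 24 licensing and helicase genes (37.5%), in 7 of 23 fork polymerase genes (30.4%), in 6 of 19 genes of E2F and G1/S control (31.6%) and in 3 of 45 G2/M genes (6.67%). They stood in 1 of 18 nucleotide supply genes (5.56%) and in 0 of 14 cyclins, near or below the share of all tested genes. CHR letters stood in 32 of 45 G2/M genes (71.1%), in 1 of 24 licensing genes and in 0 of 23 fork polymerase genes. The replication-dependent histones, most of which had a difference below 0, held E2F letters in 6 of 23 (26.1%) and CHR letters in 8 of 23 (34.8%). A match is a description of the letters and not a site. EXO1, a nuclease of repair (chr1:241847954-241848253, plus strand), and CDCA5, which holds cohesin on copied DNA (chr11:65083991-65084290, minus strand), carry E2F letters, here in capitals. CDK1, the mitotic kinase (chr10:60778081-60778380, plus strand), carries both, the CHR letters before the start and the E2F letters after it. ZWINT, of the kinetochore (chr10:56361210-56361509, minus strand), and CCNB2, a mitotic cyclin (chr15:59104896-59105195, plus strand), carry CHR letters.
EXO1: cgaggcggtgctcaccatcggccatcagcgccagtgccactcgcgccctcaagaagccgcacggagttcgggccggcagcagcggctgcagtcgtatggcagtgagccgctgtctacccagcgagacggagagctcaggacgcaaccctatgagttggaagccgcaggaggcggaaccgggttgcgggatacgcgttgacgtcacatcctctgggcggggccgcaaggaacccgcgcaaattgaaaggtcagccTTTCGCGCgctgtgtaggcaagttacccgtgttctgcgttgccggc
CDCA5: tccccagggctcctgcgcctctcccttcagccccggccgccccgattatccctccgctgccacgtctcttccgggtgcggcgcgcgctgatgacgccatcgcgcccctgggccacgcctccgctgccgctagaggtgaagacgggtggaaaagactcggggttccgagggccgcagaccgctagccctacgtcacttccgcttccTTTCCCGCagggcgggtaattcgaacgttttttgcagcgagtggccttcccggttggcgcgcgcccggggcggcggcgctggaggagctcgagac
CDK1: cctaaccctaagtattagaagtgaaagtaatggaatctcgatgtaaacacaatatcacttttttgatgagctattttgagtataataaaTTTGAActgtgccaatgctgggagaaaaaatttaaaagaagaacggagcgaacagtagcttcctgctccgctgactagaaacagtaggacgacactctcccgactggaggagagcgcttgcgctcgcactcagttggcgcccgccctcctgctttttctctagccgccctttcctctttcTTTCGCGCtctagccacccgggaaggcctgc
ZWINT: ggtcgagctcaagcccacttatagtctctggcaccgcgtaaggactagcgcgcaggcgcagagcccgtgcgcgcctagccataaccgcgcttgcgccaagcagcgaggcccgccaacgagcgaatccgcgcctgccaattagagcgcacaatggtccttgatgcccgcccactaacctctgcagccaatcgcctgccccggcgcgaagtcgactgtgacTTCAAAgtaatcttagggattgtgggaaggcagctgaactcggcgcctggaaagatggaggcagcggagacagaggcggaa
CCNB2: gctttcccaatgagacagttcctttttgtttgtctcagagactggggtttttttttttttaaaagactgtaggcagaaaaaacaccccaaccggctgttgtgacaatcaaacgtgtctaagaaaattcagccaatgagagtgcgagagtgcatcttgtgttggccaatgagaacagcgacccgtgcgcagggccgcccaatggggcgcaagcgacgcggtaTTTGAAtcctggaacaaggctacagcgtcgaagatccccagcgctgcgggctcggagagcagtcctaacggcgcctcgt

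Genes that load and start the helicase were higher in the high cells: 21 of 26 passed the limit (80.8%, against 7.99% of all genes). None were lower by it, and the list median was 1.64. CDC45, which joins the MCM ring to make the active helicase, ranged from 0.0 to 34.6 TPM in the low cells (median 1.17) and from 23.8 to 175.001 TPM in the high cells (median 58.7). The ranges overlapped, but 19 of 22 high cells lay above every low cell, and the difference was 4.19. Overlap of the groups was not counted over all genes tested. Here and below it describes single genes, with no background to set it against. MCM10, which helps to fire origins, had medians of 0.17 and 19.7 TPM (difference 3.27). GMNN, the inhibitor that blocks a second licensing, had 16.2 and 113.1 TPM (3.04), and ORC6, of the origin recognition complex, had 5.90 and 33.97 TPM (2.84). The ORC genes did not differ alike: ORC1 had a difference of 2.19 and ORC3 of 1.06, while ORC2, ORC4 and ORC5 lay at 0.29, 0.15 and 0.13, near the median of all genes.

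Fork genes differed most as a list: 24 of 28 were higher by the limit (85.7%, against 7.99% of all genes), 0 lower, with a median of 2.16. FEN1, the nuclease that trims Okazaki fragments, ranged from 0.0 to 69.8 TPM in the low cells (median 20.95) and from 93.4 to 238 TPM in the high cells (median 146.2). No low cell reached the lowest high cell, and the difference was 3.25. The share of all genes tested without such overlap was not counted. RFC4, of the clamp loader, had medians of 7.08 and 63.1 TPM (3.47), and DSCC1, of the loader variant that serves cohesion, had 0.20 and 27.6 TPM (3.52). KIAA0101, a PCNA-binding protein, had 44.3 and 305 TPM (2.94). LIG1, the ligase that seals the fragments, had a difference of 2.94 and POLA2 and PRIM1, of the primase complex, had 2.82 and 2.84. The small polymerase subunits POLE4, POLE3 and POLD4 had 0.53, 0.75 and -0.42, while the catalytic genes POLD1, POLA1 and POLE had 2.41, 2.06 and 1.22, so the differences ranged widely within these polymerases.

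In nucleotide supply, 11 of 22 genes were higher by the limit and 0 lower (median 1.18). TK1, the thymidine kinase of S phase, ranged from 0.0 to 347 TPM in the low cells (median 59.9) and from 286 to 1005 TPM in the high cells (median 617), a difference of 4.03. The ranges overlapped, but 19 of 22 high cells lay above every low cell. RRM1, partner of RRM2, had 23.1 and 109.6 TPM (2.32), and DUT, which removes dUTP, had 30.2 and 128.7 TPM (2.24). CTPS1, which makes CTP, was at 2.20, and the folate enzymes SHMT1, MTHFD1, MTHFD2 and SHMT2 were at 1.68, 1.56, 1.53 and 1.36. The 11 members short of the limit lay between 0.15 and 0.996, among them the purine synthesis genes GART (0.996), PAICS (0.99), PPAT (0.72) and ATIC (0.40), and RRM2B, the ribonucleotide reductase subunit used outside S phase (0.28).

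Of 22 genes of E2F and G1/S control, 12 were higher by the limit (54.5%, against 7.99% of all genes) and 0 lower (median 1.30). DTL, which targets CDT1 for destruction, had medians of 0.0 and 13.7 TPM (2.85). The repressor E2F8 had 0.15 and 14.04 TPM (2.73), and the activator E2F1 had 0.0 and 6.997 TPM (2.32). E2F7 was at 2.15, and E2F2, E2F3, E2F4, E2F5 and E2F6 were at 0.85, 0.62, 0.66, -0.57 and 0.12, so 3 of these 8 E2F genes passed the limit. CDK2 and CDK4, kinases of G1 and S phase, were at 2.04 and 1.11, and CDK6 was at -0.37.

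Of 16 cyclins, 5 were higher by the limit (31.25%, against 7.99% of all genes) and 0 lower (median 0.28). Cyclins of the same phase differed unequally. CCNE2, the cyclin of the G1/S transition, ranged from 0.0 to 20.2 TPM in the low cells (median 0.42) and from 7.37 to 215 TPM in the high cells (median 49.7), a difference of 4.06; 17 of 22 high cells lay above every low cell. CCNE1 had medians of 0.0 and 4.19 TPM and a difference of 0.90. CCNA2, of S and G2 phase, had 0.53 and 40.1 TPM (3.08). CCND3 was higher (20.5 and 53.8 TPM, 1.98) while CCND1, the cyclin of early G1, had 112.9 TPM in the low and 68.97 TPM in the high cells (-0.44) with overlapping ranges. CCNB1, the mitotic cyclin, had medians of 21.2 and 46.7 TPM (0.62), but its low cells ranged from 0.0 to 825 TPM against 12.8 to 101.4 TPM in the high cells. The low cells thus held both the lowest and the highest CCNB1 values. CCNB2, also mitotic, had 14.7 and 86.3 TPM (2.23), and CCNF had 3.89 and 16.8 TPM (1.69). For CCNA2, CCNB2 and CCNF too, the highest low cell lay above the highest high cell. Their differences thus describe group means and do not hold against every low cell.

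**Figure D2:**
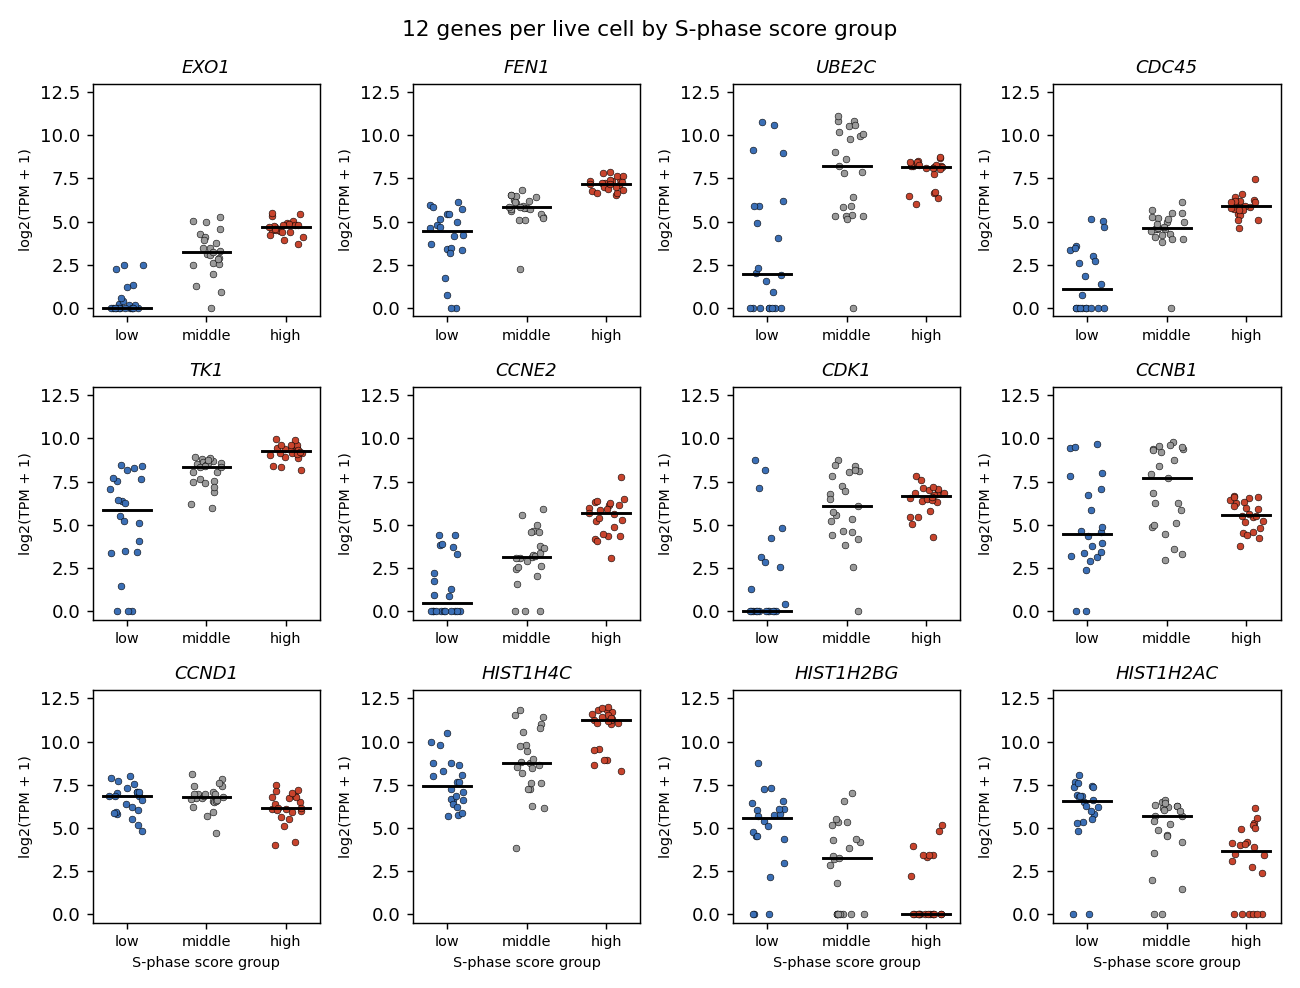
log2(TPM + 1) of 12 genes in each live HepG2-labelled cell (point), in the low (22 cells), middle (23) and high (22) S-phase groups, with the group median as a bar. EXO1 and FEN1 do not overlap between low and high cells, CCNB1, CDK1 and UBE2C are spread widely among low cells, and HIST1H2BG and HIST1H2AC run the other way from HIST1H4C. The share of all genes without overlap was not counted.

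Homologous recombination, fork repair and checkpoint genes were higher in 30 of 40 cases and lower in 0 (median 1.69). EXO1 ranged from 0.0 to 4.64 TPM in the low cells (median 0.0) and from 11.98 to 44.7 TPM in the high cells (median 24.6). It was detected in 10 of 22 low cells and in all 22 high cells, with no overlap and a difference of 4.14. As for FEN1, the share of all genes without overlap was not counted. RAD54L, which helps strand invasion, had medians of 0.0 and 22.5 TPM (3.56), and FANCI, of the Fanconi anaemia pathway, had 3.36 and 57.4 TPM (3.22). The damage sensors differed less: ATR was at 0.46, NBN at 0.51 and RAD50 at -0.06. In mismatch and base excision repair, 7 of 18 genes were higher (38.9%, against the same 7.99%) and 0 lower (median 0.81). UNG, which removes uracil from DNA, had 20.2 and 82.2 TPM (2.11), and APEX1 and POLB were at 0.03 and -0.07.

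Of 13 cohesin genes, 3 were higher by the limit (23.1%, against 7.99% of all genes) and 0 lower (median 0.58). These were CDCA5 (medians 1.01 and 68.6 TPM, difference 4.03), the acetyltransferase ESCO2, which acts in S phase (0.08 and 26.5 TPM, 3.43), and the ring subunit SMC1A (6.48 and 16.8 TPM, 1.31). RAD21, another ring subunit, was at 0.86, and ESCO1, the acetyltransferase used outside S phase, was at -0.07.

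Histone genes ran in both directions. Of 26 replication-dependent histone genes tested, 5 were higher (19.2%) and 10 lower (38.5%) by the limit. Over all genes the shares were 7.99% and 0.731%. The list median was -0.78, which lay between -1.21 and -0.50 under the alternatives tried. HIST1H4C, an H4 gene, ranged from 50.2 to 1454 TPM in the low cells (median 175.3) and from 312 to 4125 TPM in the high cells (median 2439), a difference of 3.20. Linker histone genes were also higher, HIST1H1D with medians of 0.0 and 47.6 TPM (3.67), HIST1H1E at 1.79 and HIST1H1B at 1.46, whereas HIST1H1C was at 0.23. HIST1H2BG ranged from 0.0 to 438 TPM in the low cells (median 45.99) and from 0.0 to 35.4 TPM in the high cells (median 0.0), a difference of -3.45, and it was detected in 19 low and 8 high cells. HIST1H2AC, an H2A gene, had medians of 92.6 and 11.9 TPM (-2.90), and HIST1H2BD, an H2B gene, had 67.9 and 12.4 TPM (-2.37). HIST2H2BE had 50.4 and 7.44 TPM (-1.75) and HIST1H2BK, which had the highest level of the lower histone genes, 227 and 85.8 TPM (-1.45). Over all 56 histone genes found by symbol, a set formed after the values were seen, 10 were higher (17.9%) and 17 lower (30.4%), with a median of -0.45. The shares are to be read against the same 7.99% and 0.731% of all genes. Most replication-dependent histone transcripts end in a stem loop in place of a poly(A) tail, as background, and a protocol that primes on poly(A) reports the transcripts it can prime. HIST2H2AA3 and HIST2H2AA4 had equal values in the table, as did HIST2H4A and HIST2H4B, so these pairs cannot be told apart.

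HIST1H2AJ and HIST1H2AI, both H2A genes of the same cluster, stood at opposite ends. HIST1H2AJ ranged from 0.0 to 78.6 TPM in the low cells (median 0.0) and from 1.65 to 203 TPM in the high cells (median 93.3), a difference of 4.36. HIST1H2AI ranged from 0.0 to 108.1 TPM in the low cells (median 12.9) and from 0.0 to 16.6 TPM in the high cells (median 0.0), a difference of -2.62, and it was detected in 14 low and 2 high cells. Their promoters, listed by RefSeq as H2AC14 (chr6:27814728-27815027, minus strand) and H2AC13 (chr6:27807923-27808222, plus strand), are shown because they carry the same E2F letters at the same place, 50 bases before the start, in capitals below. Compared base by base without gaps, the windows were identical at 252 of 300 bases. Transcripts of near-identical histone genes share reads, so the split between such copies is uncertain.
HIST1H2AJ: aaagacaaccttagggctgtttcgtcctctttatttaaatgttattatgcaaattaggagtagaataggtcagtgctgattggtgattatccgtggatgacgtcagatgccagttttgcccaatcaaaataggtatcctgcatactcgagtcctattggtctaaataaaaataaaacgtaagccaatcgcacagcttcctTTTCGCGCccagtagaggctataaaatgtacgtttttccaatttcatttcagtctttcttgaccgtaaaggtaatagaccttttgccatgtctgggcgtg
HIST1H2AI: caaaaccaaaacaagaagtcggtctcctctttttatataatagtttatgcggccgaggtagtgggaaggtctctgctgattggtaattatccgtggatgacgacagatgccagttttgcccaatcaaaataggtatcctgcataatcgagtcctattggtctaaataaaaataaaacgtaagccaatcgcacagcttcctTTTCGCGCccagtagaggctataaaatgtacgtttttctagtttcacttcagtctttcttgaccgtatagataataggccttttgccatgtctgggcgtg

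**Figure D3:**
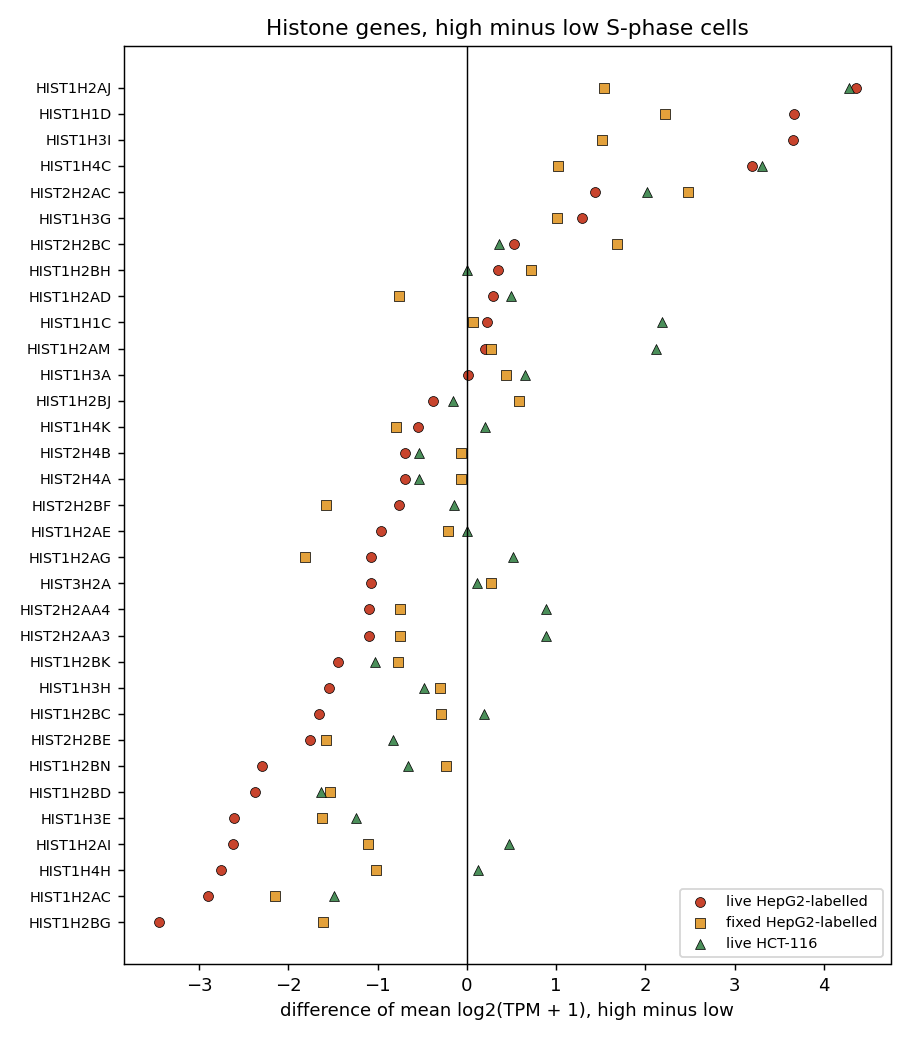
Difference of mean log2(TPM + 1), high minus low S-phase cells, for 33 histone genes with a mean of at least 5 TPM, in live HepG2-labelled (circles), fixed HepG2-labelled (squares) and live HCT-116 cells (triangles) ranked by the same rule. HIST1H2AJ, HIST1H1D, HIST1H3I and HIST1H4C stand at the upper end, and HIST1H2BG, HIST1H2AC and HIST1H4H at the lower end of the live HepG2-labelled cells.

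Genes that process histone mRNA and place histones on DNA all had a difference above 0, with 14 of 25 higher by the limit (median 1.28). ASF1B, an H3-H4 chaperone, had medians of 17.5 and 187.2 TPM (3.67), and CHAF1B, of the chromatin assembly factor, had 2.55 and 17.6 TPM (2.39). SLBP, which binds the stem loop of histone mRNA, was at 1.83, and DNMT1, which copies DNA methylation, at 1.90. The variant genes H2AFX and H2AFZ were at 2.08 and 1.68, and H3F3A and H3F3B at 0.32 and 0.36.

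Mitotic genes were higher in the high cells on average, and they also divided the low cells. Of 54 G2/M genes, 41 were higher by the limit (75.9%, against 7.99% of all genes) and 0 lower (median 1.72). UBE2C, of the anaphase-promoting pathway, had medians of 2.90 and 291 TPM (4.44), but its highest low cell, at 1771 TPM, lay above the highest high cell, at 436 TPM. CDK1 had medians of 0.0 and 101.3 TPM (4.51), and again the highest low cell (439 TPM) lay above the highest high cell (221 TPM). The mean log2(TPM + 1) over the 54 genes ranged from 0.67 to 6.24 in the low cells (median 1.65), from 1.18 to 6.55 in the middle cells (median 5.38) and from 3.10 to 4.93 in the high cells (median 4.51). These differences rest on the log scale: as a log2 ratio of mean TPM, UBE2C was at 0.31, CDK1 at 1.25 and the list median at 0.44. Without RRM2 in the score the list median was 0.93, and with the G2/M mean taken out of the score, which removes this difference by construction, it was -0.07. The high cells thus had neither the lowest nor the highest mitotic level. Of the low cells, 15 had a mean between 0.67 and 2.40, below all high cells, and 7 had a mean between 3.21 and 6.24.

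**Figure D4:**
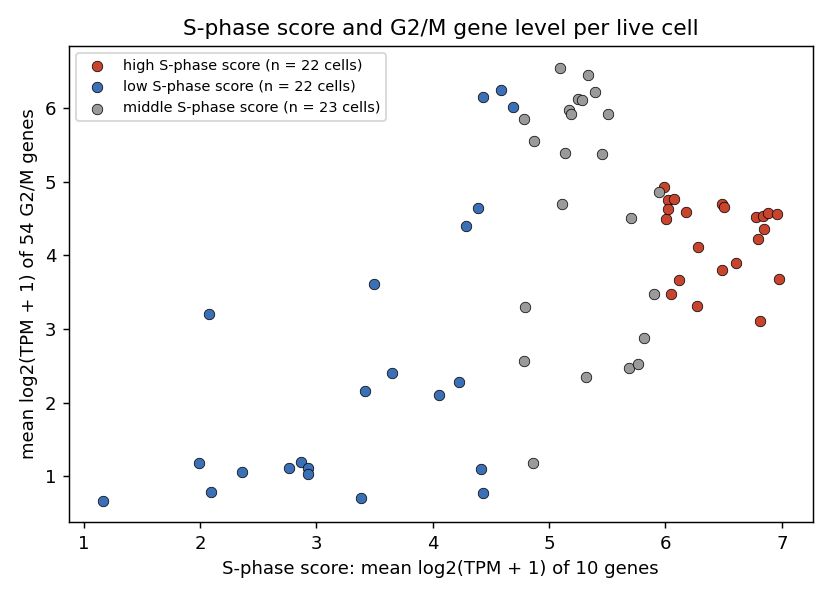
S-phase score (horizontal axis) and mean log2(TPM + 1) of 54 G2/M genes (vertical axis) in each of 67 live HepG2-labelled cells, by group. High cells lie between 3.10 and 4.93 on the vertical axis, and low cells between 0.67 and 6.24, with 15 of 22 below every high cell.

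Set apart in this way, after the values were seen, both sets of low cells can be described against the high cells. The split used the mean of the G2/M genes, so a low level of these genes in the 15 cells and a higher one in the 7 is fixed by it. The 7 include the cell with 20.5% of reads assigned, which had the highest G2/M mean of the low cells (6.24), and a cell at 3.21, just inside the range of the high cells, which began at 3.10. The median difference of the G2/M list was 2.99 against the 15 cells and -0.51 against the 7, or -0.30 without the cell with few assigned reads. PLK1, a mitotic kinase, had medians of 0.0 TPM in the 15 cells, 130 TPM in the 7 cells and 39.2 TPM in the high cells. CDC20, an activator of the anaphase-promoting complex, had 0.0, 203 and 28.1 TPM, and CCNB1 had 9.61, 251 and 46.7 TPM. CCNA2 had a difference of 4.73 against the 15 cells and -0.46 against the 7 (-0.32 without the cell with few assigned reads). CCNB2 was at 3.94 and -1.42 (-1.37), and CCNF at 2.13 and 0.74 (1.08). The replication lists are outside the genes of the split, but both sets come from the cells ranked lowest on the 10 S-phase genes. Lower replication lists in each set are therefore not independent of the ranking. The fork list had a median difference of 2.49 against the 15 cells and 1.23 against the 7 (1.32 without that cell). The licensing list had 1.90 and 1.13 (1.10). EXO1 had medians of 0.0 TPM in the 15 and 0.50 TPM in the 7 cells, against 24.6 TPM in the high cells, and CCNE2 had 0.0, 1.39 and 49.7 TPM. TK1 lay between, with 15.8, 286 and 617 TPM. Of the lower histone genes, HIST1H2AC had 94.8 and 90.3 TPM against 11.9 TPM in the high cells, and HIST1H2BG had 50.8 and 21.7 TPM against 0.0. HIST1H4H had 23.7 TPM in the 15 cells and 0.0 in both the 7 and the high cells. These histone medians moved with the cell with few assigned reads: over the other 6 cells they were 142.6 TPM for HIST1H2AC, 57.3 TPM for HIST1H2BG and 27.7 TPM for HIST1H4H. With the 15 cells alone as the low group, 10.4% of the genes were higher and 1.28% lower.

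The middle cells placed the groups on a scale. The mean log2(TPM + 1) over the licensing list was 2.48 ± 0.73 in the low, 3.78 ± 0.38 in the middle and 4.21 ± 0.22 in the high cells (SD over cells), and over the fork list it was 3.40 ± 0.73, 4.77 ± 0.37 and 5.39 ± 0.22. The spread over cells was widest in the low group for both. EXO1 had a median of 8.57 TPM in the middle cells, CCNE2 of 7.73 TPM and FEN1 of 55.98 TPM, all between the medians of the outer groups. The replication-dependent histones did not follow this order, with 3.19 ± 1.14, 3.12 ± 0.68 and 2.67 ± 0.56, and the G2/M list was highest in the middle cells, with 2.45 ± 1.90, 4.62 ± 1.64 and 4.24 ± 0.53.

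Inhibitors of the cycle and p53 targets had 2 of 23 higher by the limit (8.70%, near the 7.99% of all genes) and 1 lower (median 0.29). The higher genes were CDKN3, a phosphatase that acts on CDK1 and CDK2 (medians 17.4 and 168.2 TPM, 2.82), and SESN1 (0.52 and 4.80 TPM, 1.29). The antiproliferative gene BTG1 was lower (8.77 and 3.61 TPM, -1.07). CDKN1A, the p21 gene, was at 0.31, CDKN1B at 0.42 and MDM2 at 0.32, near the median of all genes. CDKN3 had a median of 505 TPM in the 7 low cells with mitotic expression (350.5 TPM without the cell with few assigned reads) and 2.57 TPM in the other 15.

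The 6 lists of protein synthesis, protein turnover and metabolism had medians between 0.09 and 0.66, against 0.24 over all genes. Of 83 cytosolic ribosomal protein genes 1 passed the limit, the paralog RPL39L (20.3 and 53.2 TPM, 1.83), and the list median was 0.09. The nuclear respiratory chain had 1 of 78 higher, the succinate dehydrogenase subunit SDHA (77.2 and 160.99 TPM, 1.15), and a median of 0.36. The proteasome had 3 of 40 higher (PSMC3 at 1.496, PSMD2 at 1.20 and PSMD11 at 1.01, median 0.52), and all 8 chaperonin CCT genes lay between 0.49 and 0.93 with 0 past the limit. Glycolysis had 2 of 20 higher, PFKP at 1.29 and ENO2 at 1.02 (median 0.66), and cholesterol and fatty acid synthesis had 3 of 24, IDI1 at 1.32, ELOVL6 at 1.23 and INSIG1 at 1.05 (median 0.52). No gene of these 6 lists was lower by the limit. The higher shares, 1.20% (ribosomal), 1.28% (respiratory), 7.50% (proteasome), 0.0% (CCT), 10.0% (glycolysis) and 12.5% (cholesterol and fatty acids), are to be read against the 7.99% of all genes. Scaling by the median ratio brought the respiratory median to 0.06, the stress median from 0.55 to 0.14 and the G1/S control median from 1.30 to 0.90.

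Some stress and response genes, such as TFF1, varied widely from cell to cell. Of 24 stress and unfolded protein genes, SDF2L1, of the endoplasmic reticulum, was higher (27.7 and 60.3 TPM, 1.05) and DDIT4, an inhibitor of mTORC1, was lower (24.8 and 6.47 TPM, -1.54), with a list median of 0.55. Each is 4.17% of the list, against 7.99% higher and 0.731% lower over all genes. DDIT4 was detected in 18 low and 12 high cells, and its median was 28.3 TPM in the 15 low cells with little mitotic expression and 4.66 TPM in the other 7, or 13.3 TPM without the cell with few assigned reads. Of 24 immediate early genes 3 were higher, CYR61 at 1.51, CTGF at 1.12 and IER3 at 1.09, and 0 were lower (median 0.21), while FOS was at 0.71 and EGR1 at -0.20. The higher share was 12.5%, against 7.99% of all genes. Against the 15 low cells with little mitotic expression, CTGF was at 0.36, CYR61 at 1.00 and the list median at -0.24. Against the other 7 they were at 2.74, 2.60 and 0.62. Of 22 luminal and estrogen response genes 2 were higher and 0 lower (median 0.04), a share of 9.09% against 7.99% of all genes. TFF1, a secreted trefoil peptide, had medians of 371 and 1959 TPM (1.86), yet its low cells ranged from 0.0 to 18731 TPM and its high cells from 0.0 to 10979 TPM. ESR1 was at -0.47 and GATA3 at 0.01.

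The lower genes other than histones included C/D box small nucleolar RNAs, which guide the methylation of ribosomal RNA. The protocol primes on poly(A), so these values describe transcripts that it can prime and may not follow the level of the small nucleolar RNAs. SNORD79 had medians of 59.8 and 0.0 TPM (-3.18) and was detected in 17 low and 6 high cells. SNORD44 had 58.9 and 0.0 TPM (-2.16) and SNORD36A had 87.3 and 35.3 TPM (-1.80). As a family, chosen after the values were seen, 16 of the SNORD genes tested (12.8%) were lower, against 0.731% of all genes, and 8 (6.4%) were higher, against 7.99%. The family median was -0.05. In the fixed cells SNORD79 had a difference of 0.93 and SNORD36A of 1.68, in the other direction, and in live HCT-116 cells they had -0.43 and 0.11. CD44, a hyaluronan receptor, had medians of 17.02 and 4.22 TPM (-1.82), and TMEM150A had 10.7 and 0.0 TPM (-2.11); in the fixed cells they were at -0.35 and -1.001.

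The same rule was applied to cells that had no part in this ranking. In 82 fixed HepG2-labelled cells (27 high, 27 low), 937 of 12190 genes (7.69%) were higher and 93 (0.763%) lower by the limit. In 91 live HCT-116 cells (30 high, 30 low), 758 of 11796 genes (6.43%) were higher and 97 (0.822%) lower. The 10 genes set the ranking there too, so these are descriptions. The fork list had a median of 1.77 in the fixed and 1.79 in the HCT-116 cells, against 2.16 in the live HepG2-labelled cells, and the G2/M list had 2.02 and 1.99, against 1.72. CDC45 was at 4.17 in the fixed and 2.98 in the HCT-116 cells, EXO1 at 3.88 and 4.14, and CCNE2 at 3.53 and 3.65.

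Some genes differed between the sets. The median of the replication-dependent histones was -0.78 in the live HepG2-labelled, -0.24 in the fixed and 0.19 in the HCT-116 cells. These medians cover 26, 25 and 19 tested members, so they do not rest on the same genes. HIST1H2BG, the lowest member in the live HepG2-labelled cells, had no value in the HCT-116 cells. HIST1H4C was at 3.20, 1.03 and 3.31, HIST1H2AC at -2.90, -2.15 and -1.49, and HIST1H2AI at -2.62, -1.11 and 0.47. Glycolysis had list medians of 0.66, 0.47 and -0.10, with PFKP at 1.29, 1.28 and -0.10. None of these differences between sets was tested. Leaving out 6 fixed columns that correlated above 0.95 with another fixed column gave 8.43% of genes higher and 1.18% lower in 76 fixed cells, with a histone median of -0.26, a fork median of 1.92 and a G2/M median of 2.27. HIST1H2AC was then at -2.60, HIST1H2AI at -1.49, PFKP at 1.39, SNORD79 at 0.77 and SNORD36A at 1.37 in the fixed cells.

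**Figure D5:**
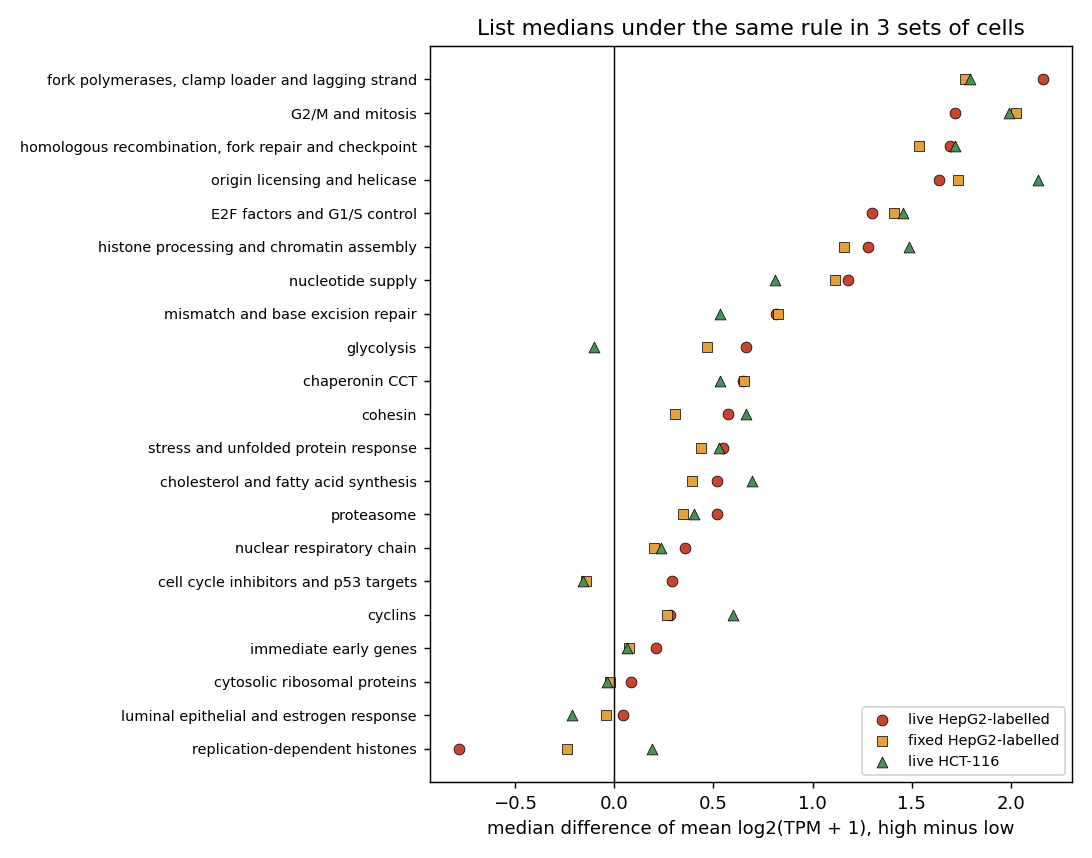
Median difference of mean log2(TPM + 1), high minus low S-phase cells, for 21 gene lists in live HepG2-labelled, fixed HepG2-labelled and live HCT-116 cells ranked by the same 10 genes. The licensing, fork and nucleotide supply lists lie above 0.8 in all 3 sets, and the replication-dependent histones lie between -0.78 and 0.19. The histone medians cover 26, 25 and 19 tested members in the live HepG2-labelled, fixed HepG2-labelled and live HCT-116 cells.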

How the data were processed

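Per the labels and the study's methods, the authors checked reads with FastQC, quantified them with kallisto 0.46.0 against GRCh38 transcripts, summed them to genes and kept cells with over 4000 genes. The deposited gene tables hold TPM. The deposited transcript tables hold CPM, which served here only to read the number of reads per cell, from the step between values to the nearest 0.1 M (mega) reads, and the share assigned. The members and gene lists were chosen with earlier results of these data known.

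A column was given to a group by its name. Scores and differences were computed in Python 3.11.15 with numpy 2.4.6 and pandas 2.3.3, on log2(TPM + 1), over genes with a mean of at least 1 TPM. The genes named were, among those with a mean of at least 5 TPM outside the score, the 15 largest and 15 smallest differences, up to 4 members of each list with the largest absolute difference, and every cyclin; other members are named beside them as contrast, and some genes under this rule are not reported here. The 21 lists were described by counts and medians. The calculation of the ranking and differences was run on simulated cells whose score genes were shifted strongly between groups. Recovery of the groups there was fixed by this setting. It checks the calculation and not the grouping of the real cells. The 92 fixed HCT-116 columns were not used here, and doublets were not called.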

Additional observations from a re-analysis of the deposited data

How the results depend on the processing

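No paired analysis was possible because the columns carry no number that ties cells across groups and the result comes from no test. Leaving out each score gene in turn gave 5.59% to 8.95% of genes higher and 0.604% to 0.891% lower. A pseudocount of 0.1 gave 20.1% higher and 2.93% lower, and list medians of 2.57 (licensing), 2.71 (fork), 1.78 (G1/S control) and 2.32 (recombination). Scaling by the median ratio gave 4.47% and 1.35%, and medians of 0.90 (G1/S control), 0.14 (stress) and 0.056 (respiratory chain). The log2 ratio of mean TPM gave 5.37% higher and 3.05% lower. A minimum of 5 TPM gave a G1/S control median of 1.69. With no filter, the same genes passed out of more tested (3.59% and 0.329%). With 16 cells a group 1.21% were lower, and with 33 cells 3.51% were higher and 0.318% lower, with medians of 1.49 (fork), 0.88 (G1/S control) and 1.16 (recombination). With the number of genes detected taken out of the score, 1.20% were lower. With the G2/M mean taken out, 3.14% were higher, and the medians were 1.47 (fork), 0.81 (G1/S control), 0.72 (histone processing), 1.22 (recombination), 0.13 (cohesin), 0.10 (stress) and, reversed, -0.074 (G2/M); 347 of the 1005 higher genes were shared. Chosen after seeing the data, 13 pairs of cells matched on genes detected gave 1.56% lower, and the 15 low cells with little mitotic expression gave 1.28% lower. The other 566 list medians and percents moved by less than the spread over cells (medians) or 1.5 times (percents). Among the 15 largest and 15 smallest differences, 20 values moved by more than the spread over cells. With the G2/M mean taken out, AURKB went from 3.91 to 0.63, UBE2C from 4.44 to 1.28, CDK1 from 4.51 to 2.04 and PKMYT1 from 4.69 to 2.84. CDCA5, HIST1H2AJ and EXO1 moved too, to 2.27, 2.29 and 2.98. Except where other genes or cells enter by construction, the cause was not tested. Genes near 0 TPM, where a pseudocount matters most, are the least precise.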

Other observations

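Kinetochore genes, a family formed by symbol after the values were seen, were higher by at least 1 in the high S-phase cells in 19 of 27 cases (70.4%, against 7.99% of all genes). None were lower by it, and the median difference was 2.28. Among them were SPC25, of the NDC80 complex, with medians of 2.88 TPM in the low and 70.2 TPM in the high cells (difference 3.41), and CENPU, of the inner kinetochore, with 1.59 and 25.8 TPM (2.97). CENPE, CENPA and CENPF, which are also in the G2/M list, were at 0.15, 0.26 and 0.51. Against the 15 low cells with little mitotic expression ZWINT was at 4.53, and against the other 7 at 1.81. CENPF, a gene of that split, was at 1.76 and -2.16. The family as a whole was not compared with these 2 sets of low cells. The fixed HepG2-labelled cells gave a family median of 1.73 under the same rule.

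H/ACA box small nucleolar RNAs, which guide pseudouridylation of ribosomal RNA, had 4 members higher and 4 lower of 82 tested, with a median of 0.04. Each share was 4.88%, against 7.99% higher and 0.731% lower over all genes. The limit of poly(A) priming given above holds here too. SNORA4 had medians of 0.0 and 36.95 TPM (2.77) and was detected in 6 low and 16 high cells. Host genes of small nucleolar RNAs (SNHG genes and GAS5) had 1 of 22 higher, SNHG11 (10.2 and 17.9 TPM, 1.22), and 0 lower, with a median of -0.14. The higher share was 4.55%, against 7.99% of all genes.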
